A study of Mus musculus with 2 samples.

Results

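The 8 genes of interferon biology described here were measured across the progenitor types, the erythroid stages and the genotypes of a single-cell study of mouse fetal liver. They are the type I interferon receptor chains Ifnar1 and Ifnar2, the type II receptor chains Ifngr1 and Ifngr2, the interferon-inducible membrane genes Ifitm1, Ifitm2 and Ifitm3, and Bst2. They were chosen by symbol, all 8 were found among the 32285 genes of both libraries, and earlier results of the same data were known when they were listed. The differences between genotypes are therefore given as descriptions.

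The study sorted lineage-negative, Kit-positive cells, the gate of the blood stem cells and their progenitors, from C57BL/6 fetal livers at E14.5 and profiled them with 10x Genomics 3′ chemistry. The knockout library came from CD45.2(+) embryos that carried Vav1-iCre and floxed Brd9 on both alleles (Vav1-iCre Brd9fl/fl), and the control library from CD45.2(+) Brd9fl/fl embryos without the recombinase, obtained by mating Brd9fl/fl males with Vav1-iCre; Brd9fl/fl females. Brd9 belongs to a chromatin remodelling complex, the non-canonical form of BAF, in which it carries a bromodomain, and the comparison asks what its loss changes in these cells. Vav1-iCre acts in blood cells, and since no library carried it without floxed Brd9, its own effects and those of Brd9 loss cannot be told apart. Each genotype had 1 library, the sources used here do not give the number of embryos in each, and nothing could be tested between genotypes. Intervals below are 95% intervals that cover counting error only, not differences between embryos.

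Interferons are secreted proteins that cells release when they sense infection. Type I interferons bind a receptor of the chains Ifnar1 and Ifnar2, and interferon-gamma binds a receptor whose ligand-binding chain is Ifngr1 and whose signalling partner is Ifngr2. Both receptors act through JAK kinases and STAT factors. Type I signals act mainly through a STAT-Irf9 complex on DNA elements called ISREs, and interferon-gamma acts on elements called GAS. Ifitm proteins sit in cell and endosome membranes and hinder the entry of many viruses, and Bst2, also called tetherin, holds budding viruses on the cell surface. Blood stem and progenitor cells are known to hold some interferon-stimulated genes at a constant level without infection, and interferons are known to act on blood stem cells during their development.

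The 8 genes lie on 4 chromosomes of mouse build mm10 in the GENCODE M21 annotation. Ifitm2 (chr7:140954837-140955987, minus strand), Ifitm1 (chr7:140967221-140969825, plus) and Ifitm3 (chr7:141009586-141010770, minus) lie within 55934 bp. Ifnar2 (chr16:91372783-91405589), Ifnar1 (chr16:91485238-91507441) and Ifngr2 (chr16:91547072-91565623) lie within 192841 bp, all on the plus strand. Bst2 is at chr8:71534255-71537456 on the minus strand and Ifngr1 at chr10:19591949-19610229 on the plus strand. Ifitm2 overlaps the annotated gene Gm45717, and Ifnar2 overlaps Gm21970, each on the same strand, so their counts may be split. Ifitm2 shared 6.24% of its 31-base words with Ifitm3, and Ifitm1 shared 3.26% with Ifitm3, so a small part of the reads of this family could be placed ambiguously.

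The promoters of the 4 effector genes are shown because 3 of these genes hold an ISRE core and Ifitm1 does not. Sequences are from RefSeq (GRCm38.p6) and run 5′ to 3′ on the gene's strand from 250 bases before to 50 bases after the annotated start, and capitals mark matches on either strand to an ISRE core (GAAA, any 2 bases, then GAAA) or a GAS element (TTCNNNGAA).
Ifitm1 (chr7:140967826-140968125, plus): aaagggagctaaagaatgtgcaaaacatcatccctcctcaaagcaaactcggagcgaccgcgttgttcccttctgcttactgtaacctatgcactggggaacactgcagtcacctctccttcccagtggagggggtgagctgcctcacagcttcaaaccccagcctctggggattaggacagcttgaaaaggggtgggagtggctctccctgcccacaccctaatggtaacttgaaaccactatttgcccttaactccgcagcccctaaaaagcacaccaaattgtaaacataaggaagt
Ifitm2 (chr7:140955912-140956211, minus): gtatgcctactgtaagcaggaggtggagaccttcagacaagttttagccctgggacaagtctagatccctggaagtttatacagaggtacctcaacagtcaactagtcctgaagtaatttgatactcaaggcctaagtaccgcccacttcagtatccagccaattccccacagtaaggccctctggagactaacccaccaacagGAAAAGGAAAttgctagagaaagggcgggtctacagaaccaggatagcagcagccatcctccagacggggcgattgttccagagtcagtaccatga
Ifitm3 (chr7:141010695-141010994, minus): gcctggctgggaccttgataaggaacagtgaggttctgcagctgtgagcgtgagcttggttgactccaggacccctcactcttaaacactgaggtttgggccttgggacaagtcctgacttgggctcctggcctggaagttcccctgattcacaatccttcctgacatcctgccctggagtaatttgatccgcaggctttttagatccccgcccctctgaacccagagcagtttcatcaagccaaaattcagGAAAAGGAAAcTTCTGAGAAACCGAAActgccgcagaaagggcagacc
Bst2 (chr8:71537423-71537722, minus): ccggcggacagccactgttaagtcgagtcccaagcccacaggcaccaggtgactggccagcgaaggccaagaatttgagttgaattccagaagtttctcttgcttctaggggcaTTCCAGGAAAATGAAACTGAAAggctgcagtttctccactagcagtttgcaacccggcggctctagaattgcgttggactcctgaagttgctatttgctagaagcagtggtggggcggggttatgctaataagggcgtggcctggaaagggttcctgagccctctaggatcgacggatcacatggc
The Ifitm1 window lies inside the GENCODE gene, whose annotated start is farther upstream. The Ifitm2 match begins 46 bases before the start. Ifitm3 holds ISRE cores at bases 3 and 20 after the start and a GAS element at base 14 that overlaps the second of them. In Bst2, a pair of overlapping ISRE cores begins 130 and 124 bases before the start, and a GAS element that begins 136 bases before it overlaps the first. Among the receptor genes, Ifnar1 and Ifnar2 each held 1 GAS match and no ISRE core, and Ifngr1 and Ifngr2 held neither. Of 32851 promoters of the same length, 3.44% held an ISRE core and 8.30% a GAS element. A match is a description of letters, and its absence says only that these letters are not in this window.

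The deposited libraries held 7289 knockout and 7399 control barcodes, with 271350214 and 292972312 UMIs (unique molecular identifiers, 1 per captured transcript), and 16 barcodes occurred in both. Filters left 6751 cells of the knockout and 6858 of the control, whose medians were 36007 and 38486 UMIs per cell. Brd9 was at 7.06 CPM (UMIs scaled to a total of 1e6) in the knockout library against 27.2 in that of the control, a log2 ratio of -1.95, and it was lower in 9 of 9 classes, although its 3′ tags may lie outside the floxed exons. Female cells made up 58.9% of knockout and 23.0% of control cells, and ratios are given by sex beside the results they touch. The gate's receptor Kit was at 63.7 and 67.0 CPM, the T cell gene Cd3e was at 0 in both libraries, the hepatocyte gene Alb was at 0.747 and 0.656 CPM and the macrophage gene C1qa at 0.146 and 0.229. Whole lists were higher: 7 T and NK cell markers summed to 13.9 and 19.6 CPM, 10 macrophage markers to 25.9 and 33.8 and 8 hepatocyte markers to 8.35 and 9.15. Cells fell into 26 clusters, which were named from marker genes and merged into 9 classes, so a class stands for cells like the named type. The T and NK cell sum was highest in knockout mast/basophil cells (200 CPM) and control granulocytic cells (193). One class, clusters 1 and 11, matched no marker list and is called unnamed, with Gm15915 as the leading gene of each.

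In the control library each gene had its own order over the classes, and the plot of levels by class shows these orders beside those of the knockout. Levels are in CPM of the class and are compared within a gene only, since 3′ counts do not compare levels between genes. Ifnar2, a chain of the type I receptor, was highest in monocyte-dendritic cells at 254 CPM, then in lymphoid-primed cells at 175. HSC/MPP (blood stem cells and multipotent progenitors) followed at 96.8 and granulocytic cells at 85.2. The other classes and erythroid stages lay between 47.4 and 57.2 CPM with intervals that overlapped their neighbours. Ifnar1 was highest in lymphoid-primed cells at 43.7 CPM, followed by monocyte-dendritic cells at 25.8, and HSC/MPP, mast/basophil and granulocytic cells, from 19.7 down to 17.0, could not be ordered within their intervals. Its lowest value was 6.59 CPM in megakaryocytes, with unnamed and erythroid cells between 8.24 and 8.94 and megakaryocyte-erythroid progenitors (MEP) at 10.5.

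Ifngr2 was highest in monocyte-dendritic cells at 74.2 CPM, with lymphoid-primed (54.8) and granulocytic cells (41.8) next, each overlapping its neighbour, and lowest in the erythroid cells richest in alpha globin at 4.35. Ifngr1 had another order. It was highest in granulocytic cells at 223 CPM, while monocyte-dendritic (123), mast/basophil (119), unnamed (119) and MEP cells (112) overlapped in turn. HSC/MPP, at 69.7 CPM, lay below all of these and below low-globin erythroid cells at 87.6. Ifngr1 thus placed MEP and low-globin erythroid cells above HSC/MPP, while Ifngr2 placed them below, at 17.0 and 12.2 against 32.4 CPM.

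Ifitm1 was concentrated in 1 class. Mast/basophil cells held 2679 CPM in the control and 66.9% of that library's Ifitm1 UMIs, although they were 2.41% of its cells. Monocyte-dendritic cells (191) and HSC/MPP (179) followed, then lymphoid-primed cells (97.6), MEP (50.6) and granulocytic cells (27.1), and the erythroid stages lay between 1.28 and 1.71. An Ifitm1 UMI was found in 90.9% of control mast/basophil cells (median 27852 UMIs) against 5.96% of control erythroid cells (median 41291 UMIs), the class with the lowest level, taken as the background that free RNA can give. The gene was far above that background in mast/basophil cells.

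Ifitm2 was the widest spread of its family. It was highest in mast/basophil cells at 734 CPM and fell through megakaryocytes (481), HSC/MPP (421), MEP (387), monocyte-dendritic (326), granulocytic (268), unnamed (169) and lymphoid-primed cells (114) to 63.5, 38.4 and 26.4 in erythroid cells of low, middle and high alpha globin. No pair of neighbours in that order overlapped. Ifitm3 was highest in monocyte-dendritic cells at 388 CPM, followed by megakaryocytes (169) and HSC/MPP (168), which overlapped, and it was at 24.3 in the mast/basophil class that led its relatives. Bst2 was highest in lymphoid-primed (122) and monocyte-dendritic cells (117), which overlapped, then HSC/MPP (104), and reached 15.3 in high-globin erythroid cells.

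**Figure D1:**
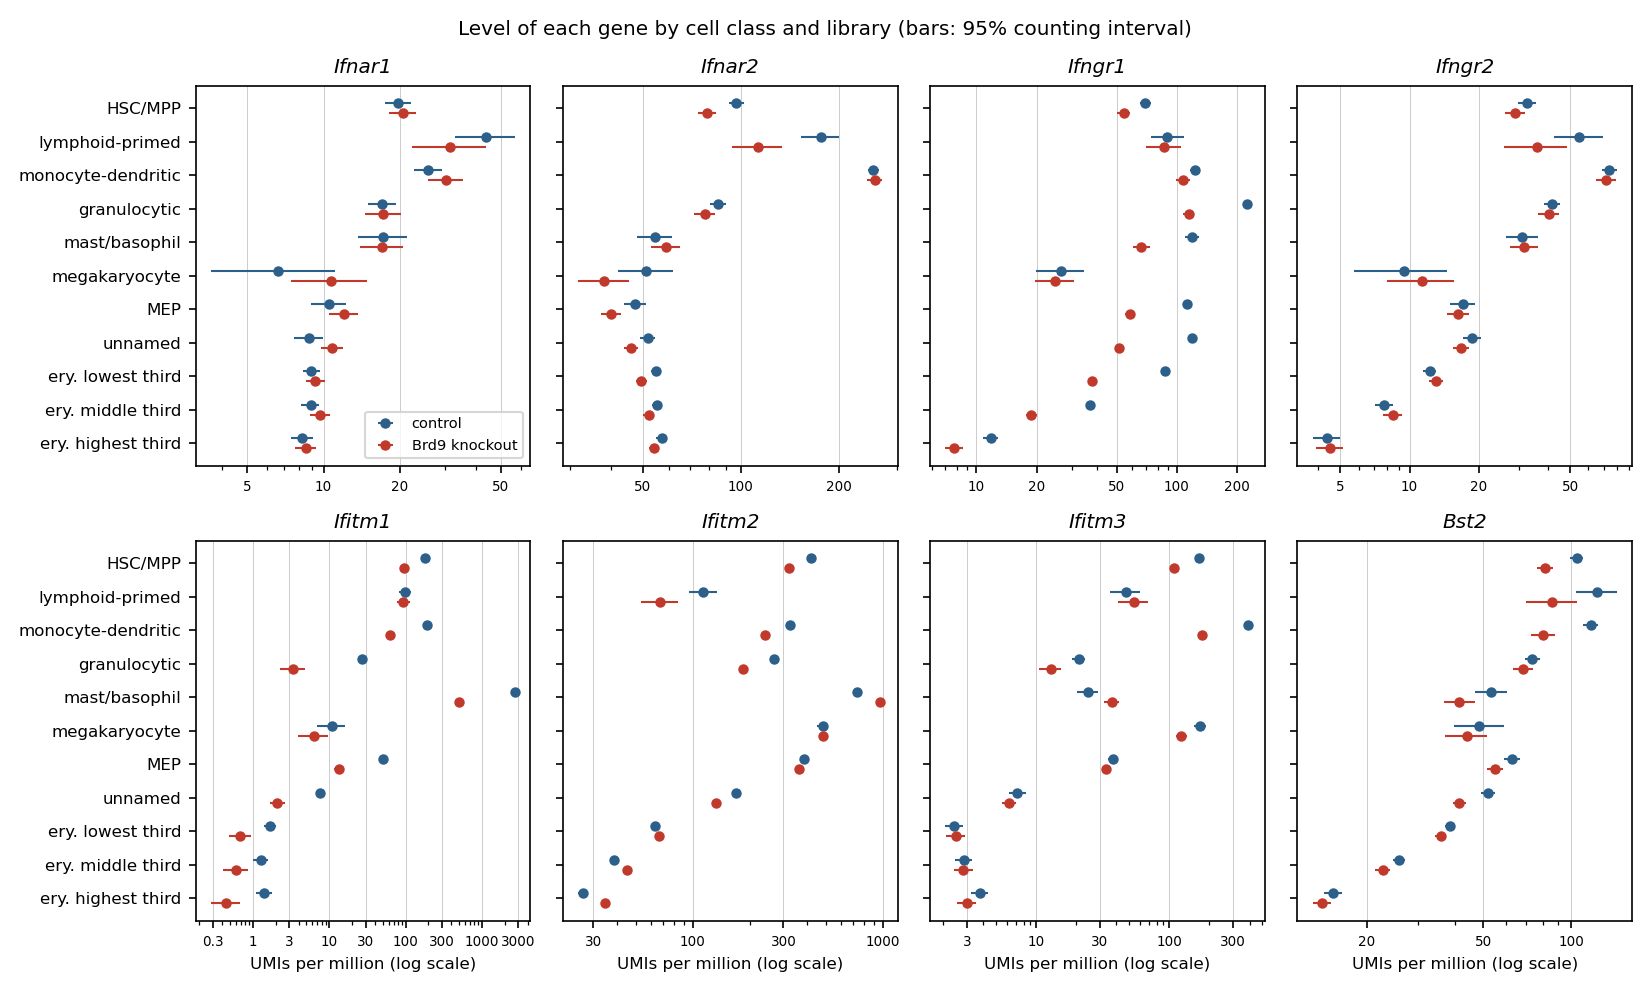
Level of each gene (CPM, log axis) by cell class and erythroid stage in the knockout and control libraries, 1 library each, with 95% counting intervals as bars. Ifitm1 stands at 2679 CPM in control and 504 CPM in knockout mast/basophil cells and near 1 CPM in erythroid cells, while Ifnar2 spans a much narrower range.

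Over the whole library, 3 of the 6 genes that reached 20 CPM in one of the libraries were lower in the knockout by more than 0.5 on the log2 scale, a difference called past the fold here, and 0 were higher. Of all 6225 genes at that level, 0.9% were past the fold and lower and 0.418% past it and higher. Ifitm1 was at 20.8 CPM in the knockout and 69.7 in the control, a log2 ratio of -1.74 (-1.79 to -1.70) and the seventh lowest of these genes. Ifngr1 was at 37.2 and 74.0 CPM (-0.99, interval -1.03 to -0.96), and Ifitm3 at 17.4 and 30.6 CPM (-0.81, interval -0.86 to -0.76). The remaining 5 genes lay closer to 0. Bst2 was at 35.8 and 42.9 CPM (-0.26), Ifnar2 at 56.9 and 66.2 (-0.22), Ifngr2 at 14.7 and 16.0 (-0.12), Ifitm2 at 136 and 133 (0.03) and Ifnar1 at 11.2 and 10.8 (0.06). In a whole library, fewer cells of a type and less RNA per cell cannot be told apart, so the classes are given one by one. With the knockout classes reweighted to the control's shares of cells, the ratios were -2.04 for Ifitm1, -0.98 for Ifngr1, -0.76 for Ifitm3 and -0.15 for Ifitm2.

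**Figure D2:**
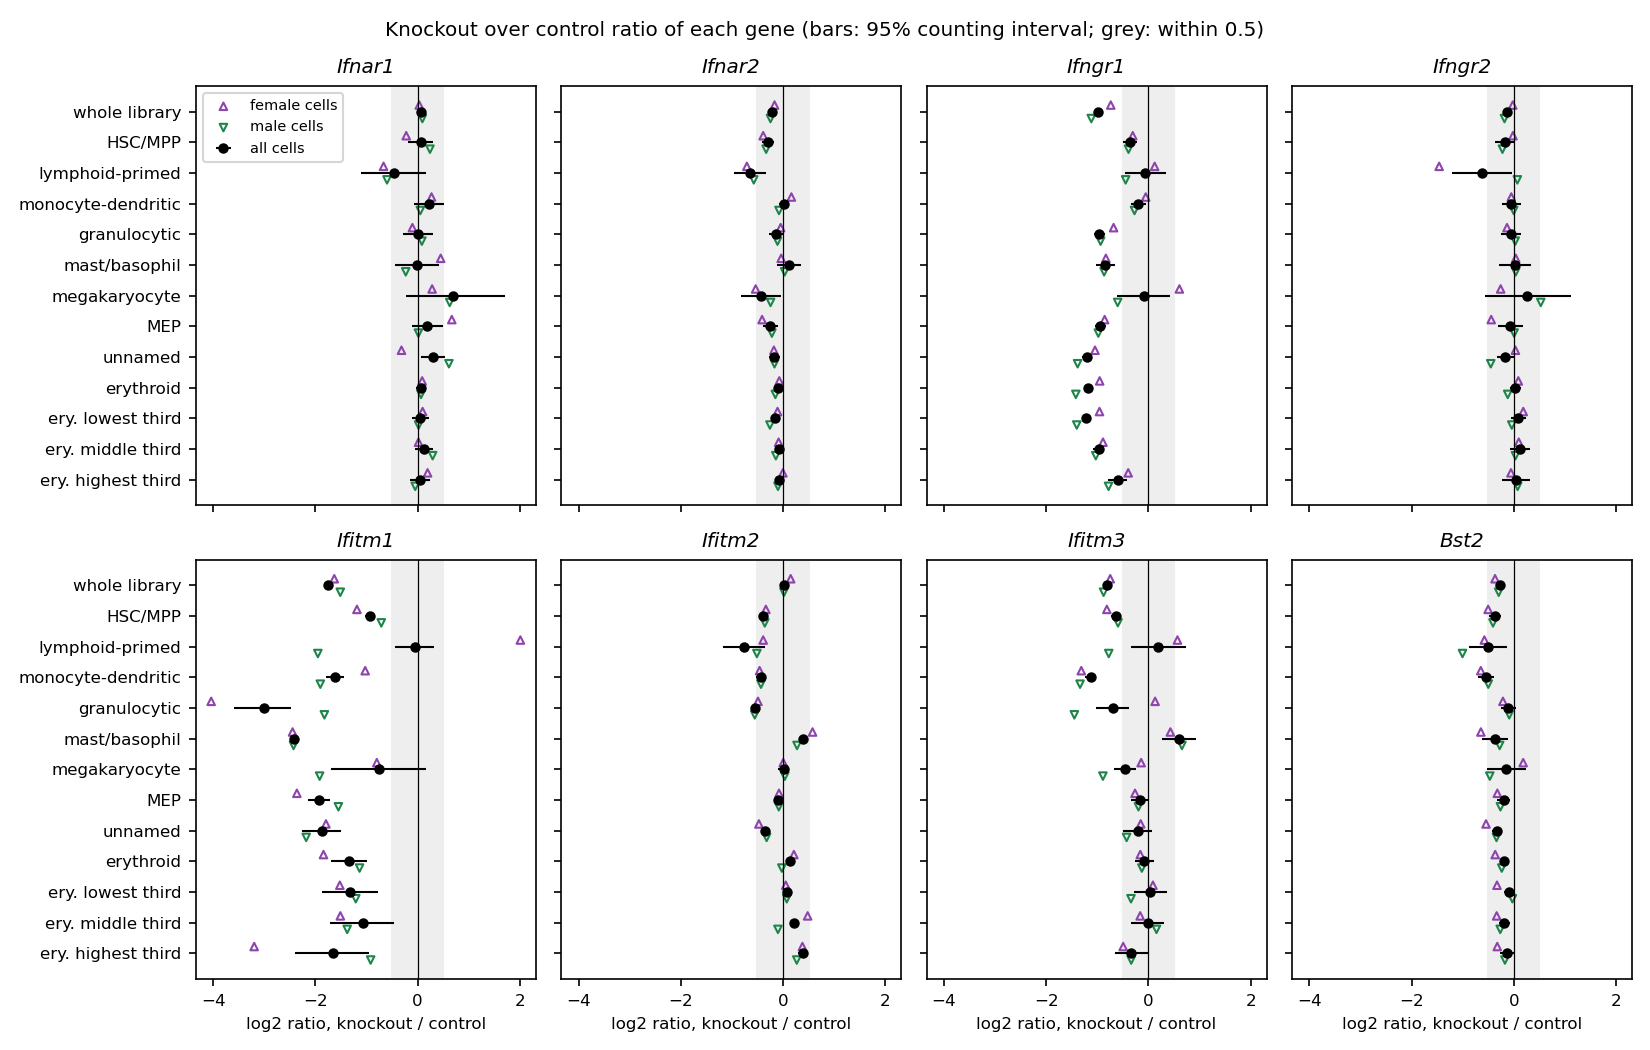
Log2 ratio of knockout over control CPM for each gene by class and erythroid stage, with the 95% counting interval (bars), the ratios in female and male cells alone (triangles) and a grey band within 0.5 of 0. Ifitm1 and Ifngr1 lie left of 0 in every class, Ifnar1 and Ifngr2 lie mostly within the band, and Ifitm3 lies left in monocyte-dendritic and right in mast/basophil cells.

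The type I receptor chains differed little between the libraries. Ifnar1 was within 0.5 of the control in every class where it reached 20 CPM, including HSC/MPP at 20.5 and 19.7 CPM and monocyte-dendritic cells at 30.2 and 25.8. Ifnar2 was at 257 CPM in knockout and 254 in control monocyte-dendritic cells, its highest class, a ratio of 0.02 (-0.08 to 0.11). It was somewhat lower in the knockout in HSC/MPP, at 78.5 against 96.8 CPM (-0.30), and in lymphoid-primed cells at 113 against 175 CPM (-0.64, interval -0.96 to -0.32). In all, its interval lay below 0 in 7 of 9 classes. Such counts of intervals, here and below, are descriptions only. The share of all genes whose intervals did the same is not given, so nothing is read from them. Only the ratio of the lymphoid-primed class was past the fold. That class held 54 knockout and 53 control cells, 4 of its 8 measured members were past the fold and lower, and of all genes there 6.7% were lower and 10.9% higher past the fold.

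Ifngr1, which binds interferon-gamma, was lower in the knockout in 9 of 9 classes, with intervals below 0 in 7. In erythroid cells it was at 21.97 CPM in the knockout and 49.96 in the control (-1.19, interval -1.24 to -1.13), and an Ifngr1 UMI was found in 47.7% and 64.9% of cells, or 28.3% and 46.6% after each cell was thinned to 18514 UMIs. Unnamed cells were at 51.3 and 119 CPM (-1.21), granulocytic cells at 115 and 223 (-0.96), MEP at 58.5 and 112 (-0.94) and mast/basophil cells at 66.3 and 119 (-0.85). The ratios were nearer 0 in HSC/MPP at 54.2 and 69.7 CPM (-0.36), in monocyte-dendritic cells at 107 and 123 (-0.19), and in megakaryocytes at 24.7 and 26.4 (-0.09, interval -0.60 to 0.42). Granulocytic cells stood apart from their neighbours in the control order but overlapped monocyte-dendritic cells in the knockout. Ifngr1 was 1 of 4 genes tested in erythroid cells and the one past the fold, where 0.534% of all genes were past it and lower.

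Its partner chain did not show such a difference. Ifngr2 was at 71.8 and 74.2 CPM in monocyte-dendritic cells (-0.05, interval -0.23 to 0.13), at 40.4 and 41.8 in granulocytic cells and at 8.80 and 8.60 in erythroid cells. It was past the fold in lymphoid-primed cells alone, at 35.8 and 54.8 CPM (-0.61, interval -1.20 to -0.04), where the ratio was -1.46 in female and 0.07 in male cells. The ligand-binding chain and its partner thus differed in how far the libraries were apart.

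Erythroid cells were ordered by their share of alpha-globin UMIs, which rises as red cells mature, and divided into groups of equal size over both libraries at 524 and 2742 CPM of alpha globin. Ifngr1 fell along this order in both libraries. In the control it was at 87.6 CPM in the low-globin, 36.8 in the middle and 11.8 in the high-globin group, and in the knockout at 37.7, 18.8 and 7.74. The ratio was -1.21 in the low-globin, -0.97 in the middle and -0.60 in the high-globin group, the first and second past the fold where 0.614% and 0.63% of all genes were past it and lower. In the high-globin group Ifngr1 was under 20 CPM and was not counted; there 0 of the 2 genes tested were past the fold, against 0.581% of all genes lower. In 10 finer bins the control fell from 109.9 to 6.05 CPM, an 18.2-fold range, and the knockout from 45.4 to 4.37 CPM, a 10.4-fold range. The knockout was lower in 10 of 10 bins and the intervals were apart in 7.

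Ifngr2 also fell over the bins, from 13.95 to 2.28 CPM in the control and from 13.5 to 3.14 in the knockout, with intervals apart in 0 of 10. Bst2 fell from 47.6 to 10.1 CPM in the control and from 44.8 to 10.2 in the knockout. Ifnar2 did not fall: it was at 51.4 CPM in the first and 54.1 in the last control bin, and at 48.0 and 54.4 in the knockout. Ifitm2 fell from 85.3 to 20.6 CPM in the control and from 87.6 to 30.1 in the knockout, so the libraries were close at the start and apart at the end, with 4 late bins in which the knockout interval lay above the control's. In the high-globin group Ifitm2 was at 34.6 against 26.4 CPM (0.39, interval 0.29 to 0.50), and by sex the ratio was 0.38 in female and 0.27 in male cells.

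**Figure D3:**
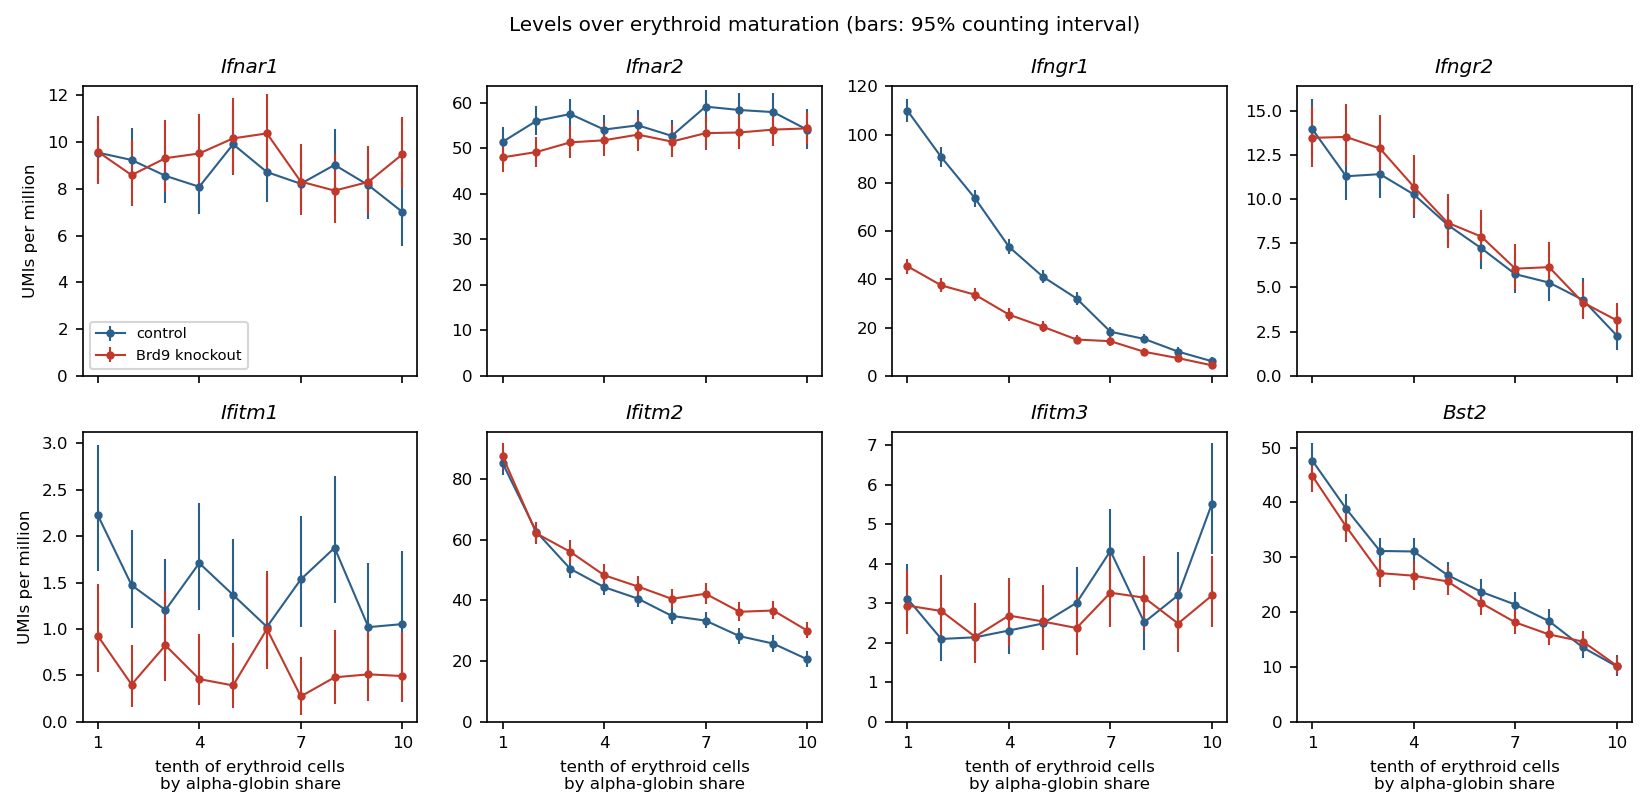
Level of each gene (CPM, shown as UMIs per 1e6) over 10 bins of erythroid cells ordered by alpha-globin share, in the knockout and control libraries, with 95% counting intervals. Ifngr1 begins at 109.9 CPM in the control and 45.4 in the knockout and the lines approach each other, while Ifngr2, Bst2 and Ifnar2 run close together.

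Erythroid cells of the 2 libraries lay partly in different clusters. Clusters 8 and 15 were mostly knockout, with 691 knockout against 33 control cells and 437 against 6. Clusters 7 and 6 were mostly control, with 63 against 665 and 81 against 653. The 1191 knockout and 704 control cells of clusters 7, 8 and 15 are left out in one of the alternatives of the closing section. Cluster 6 fell short of the 90% cut for this and stayed in. In female erythroid cells the Ifngr1 ratio was -0.95 and in male erythroid cells -1.42. Over 15 alternatives, that without clusters 7, 8 and 15 among them, the erythroid Ifngr1 ratio ranged from -1.42 to -0.95.

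Ifitm1 differed most in size between the libraries. In mast/basophil cells it was at 504 CPM in the knockout and 2679 in the control (-2.41, interval -2.47 to -2.35). The median cell held 3 Ifitm1 UMIs in knockout and 54 in control cells, and 30 or more were found in 12.3% of knockout (31 of 252) and 60.6% of control cells (100 of 165). Cells with at least 100 UMIs made up 1.59% and 33.3%. The whole distribution was lower in the knockout, not only its top. The ratio was -2.45 in female and -2.43 in male cells. Even so this class held 60.1% of the knockout library's Ifitm1 UMIs.

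**Figure D4:**
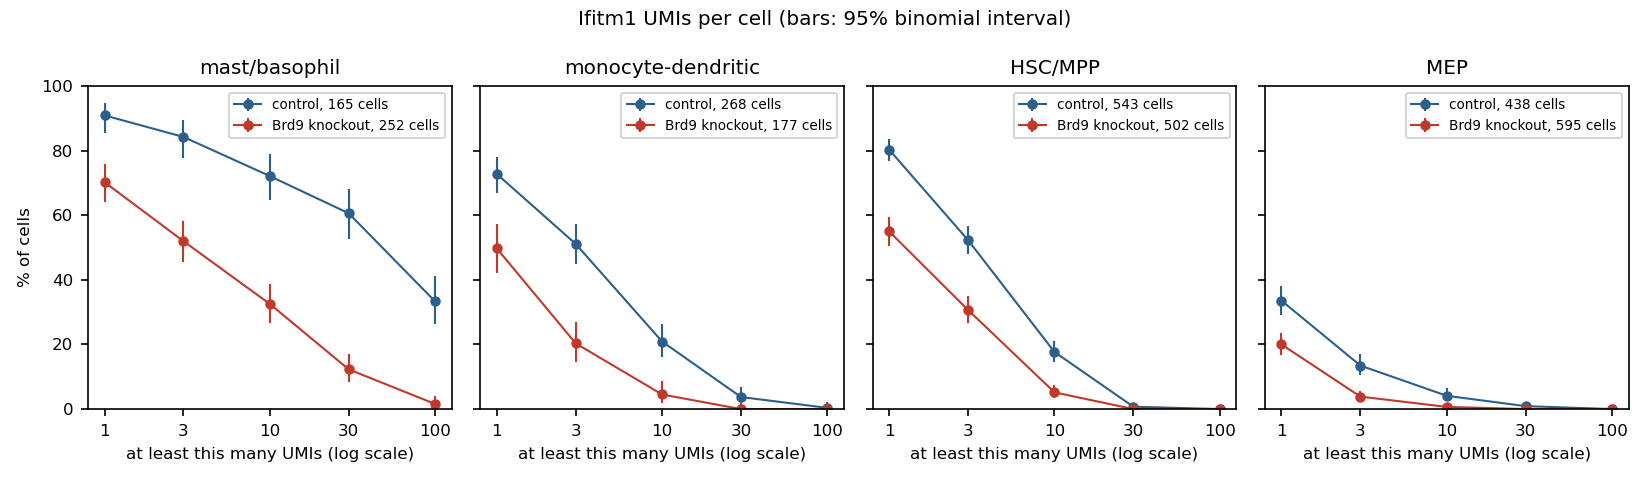
Share of cells (percent) of 4 classes that hold at least a given number of Ifitm1 UMIs (log axis), in the knockout and control libraries, with 95% exact binomial intervals. In mast/basophil cells 60.6% of control and 12.3% of knockout cells hold 30 or more.

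The mast/basophil class was 1 cluster, and its 12 listed markers summed to 1116 CPM in the knockout and 1295 in the control class. Single markers went both ways. Mcpt8, a basophil protease, was at 14.6 and 63.2 CPM, Ms4a2, a chain of the IgE receptor, at 92.0 and 172, Hdc, the enzyme that makes histamine, at 313 and 438, and Gzmb, a granule protease, at 10.8 and 26.98. Cpa3, a mast cell carboxypeptidase, was higher in the knockout, at 595 and 491 CPM. So was the mast cell protease gene Cma1, at 9.84 and 1.67, though it was found in only 5 knockout and 5 control cells. The class was also split by detection of a marker, for markers picked after their values were seen. Detection depends on a cell's total UMIs as well as on the gene. Cells with an Mcpt8 UMI (15 knockout and 21 control) were at 962 and 4568 CPM of Ifitm1 and cells without at 484 and 2405. Cells with Gzmb (17 and 18) were at 1730.3 and 8223 CPM and cells without at 435 and 2264. Cells with Cpa3 were at 470.5 and 2828 CPM and cells without (46 and 17) at 726 and 1461. Cells without Cpa3 thus had more Ifitm1 than cells with it in the knockout and less in the control, where they were only 17 cells. Cells with Hdc were at 523 and 2768 CPM and cells without (29 and 9) at 321 and 540. The knockout was lower in both parts of each of these splits, and the libraries were closest in the few cells without Hdc. The part of marker differences in the Ifitm1 result was not tested.

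Outside mast/basophil cells Ifitm1 was lower in the knockout as well. Counted with mast/basophil cells, it was lower in 9 of 9 classes, with intervals below 0 in 7. Monocyte-dendritic cells were at 62.3 CPM in the knockout and 191 in the control (-1.62), and MEP at 13.3 and 50.6 (-1.93). HSC/MPP were at 94.2 and 179 CPM (-0.93, interval -1.03 to -0.83), with a UMI in 55.0% and 80.3% of cells, or 41.5% and 68.1% after thinning. Their 2 clusters differed: cluster 2 was at 50.4 and 124 CPM (-1.30), and cluster 21, led by the stem cell genes Mecom and Hlf, was at 372 and 534 (-0.52). In cluster 21 the ratio was -1.01 in female and -0.07 in male cells. Granulocytic cells were at 3.36 and 27.1 CPM (-3.01), but 26.4% of the control UMIs lay in 1 cell, and the ratio was -4.04 in female and -1.82 in male cells. The 9 GMP markers, of granulocyte-monocyte progenitors, summed to 9805 CPM in the knockout and 14434 in the control granulocytic class, and their part in the result was not tested.

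Ifitm2 did not follow Ifitm1. In mast/basophil cells it was at 969.6 CPM in the knockout and 734 in the control (0.40, interval 0.34 to 0.46), though the median cell held 15 and 18 UMIs, in the other direction. It was lower in the knockout in HSC/MPP at 319 and 421 CPM (-0.40), in monocyte-dendritic cells at 240.4 and 326 (-0.44) and in granulocytic cells at 183 and 268 (-0.55, past the fold). MEP were at 363 and 387 CPM (-0.09) and megakaryocytes at 486 and 481 (0.01). The genes lie next to each other, and the gap between them was largest in the class where both were highest.

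Ifitm3 was lower in its highest class. Monocyte-dendritic cells were at 177 CPM in the knockout and 388 in the control (-1.13, interval -1.24 to -1.03), with medians of 2 and 7 Ifitm3 UMIs per cell, and the ratio was -1.31 in female and -1.34 in male cells. That class held 21.2% of the knockout and 44.4% of the control library's Ifitm3 UMIs. The 12 monocyte-dendritic markers also summed to less in the knockout class, at 1029 against 1410 CPM, and their part in the result was not tested. HSC/MPP were at 108 and 168 CPM (-0.63), with -0.87 in cluster 2 and -0.24 in cluster 21, and the call for the class was lost under 5 of 15 alternatives. Granulocytic cells were at 12.8 and 20.8 CPM (-0.70), but 31.6% of the knockout UMIs lay in 1 cell, without the top cells the ratio was -1.19, and it was 0.13 in female and -1.45 in male cells. In mast/basophil cells the knockout was higher, at 36.8 against 24.3 CPM (0.60, interval 0.27 to 0.94), from 232 and 116 UMIs, and the ratio was 0.23 with cells gated by marker scores. Megakaryocytes were at 123 and 169 CPM (-0.46), MEP at 33.5 and 37.7 (-0.17) and erythroid cells at 2.76 and 2.92.

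Past the fold and lower were 2 of 8 measured members in HSC/MPP, 3 of 8 in monocyte-dendritic cells, 4 of 7 in granulocytic cells, 2 of 7 in mast/basophil cells, 2 of 6 in MEP, 1 of 4 in unnamed cells and 0 of 5 in megakaryocytes. The same call was made for 0.907%, 0.933%, 1.7%, 2.24%, 0.777%, 0.521% and 1.96% of all genes tested in these classes, in that order. In mast/basophil cells 1 member, Ifitm3, was past the fold and higher, as were 2.93% of all genes. The genotype contrast was known when the members were chosen, so nothing is read from these counts. Of 72 pairs of a gene and a class, 19 were past the fold and lower and 1 past the fold and higher.

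In some classes Ifitm3 was found more often in cells that held Ifitm1. After thinning, Ifitm3 was found in 95.2% of control monocyte-dendritic cells with Ifitm1 and in 66.0% of those without, and in the knockout in 92.3% and 45.9%. HSC/MPP gave 76.2% and 49.3% in the control and 79.3% and 42.9% in the knockout. In control MEP the shares were 37.5% and 36.6%, close to each other. They were, in mast/basophil cells, 30.2% and 33.3% in the control and 42.1% and 18.6% in the knockout, and in the few lymphoid-primed cells 42.9% and 45.5% in the control and 75% and 4.76% in the knockout. These shares describe cells of 1 library each.

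Bst2 was lower in the knockout in 9 of 9 classes, by little. Monocyte-dendritic cells were at 80.3 CPM in the knockout and 117 in the control (-0.54, interval -0.70 to -0.38), lymphoid-primed cells at 86.1 and 122 (-0.51) and HSC/MPP at 81.2 and 104 (-0.36). Mast/basophil cells were at 41.4 and 53.3 CPM (-0.36) and erythroid cells at 24.5 and 27.9 (-0.19). The intervals lay below 0 in 7 of 9 classes, and the ratios past the fold were those of the monocyte-dendritic and lymphoid-primed classes.

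Lymphoid-primed cells were few and some ratios there differed by sex. Ifitm1 was at 93.8 CPM in the knockout and 97.6 in the control over all cells (-0.06), with a ratio of 2.01 in female cells (34 knockout and 18 control) and -1.95 in male cells (19 and 34). The top cell held 27.3% of the knockout and 32.5% of the control UMIs of that gene. Ifitm2, at 67.3 and 114 CPM (-0.75), was lower in both sexes.

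The neighbours named here were low or close between the libraries, and those of Ifngr1 are not given. Ifitm5, beside Ifitm2, was at 0.149 and 0.182 CPM, and Ifitm6, beside Ifitm3, at 0.909 and 1.41, with 27.2 and 32.7 in monocyte-dendritic cells. Mvb12a, an ESCRT gene next to Bst2, was at 42.8 and 39.8 CPM (0.10). Il10rb, which lies between Ifnar2 and Ifnar1 and encodes the shared chain of the IL-10 and type III interferon receptors, was at 20.8 and 20.5 CPM (0.02). Tmem50b beside Ifngr2 was at 2.92 and 3.18 CPM.

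Across the 11 classes and stages of the control library, the genes whose levels ran most like each member's were found by Pearson correlation of log2(CPM + 1) over 8168 genes. For Ifitm1 they were Msn (0.980), Trrap (0.969) and Klf6 (0.968), and for Ifitm2 Pctp (0.981), Cers4 (0.977) and Anxa5 (0.972). For Ifitm3 they were Gbp7 (0.955), itself an interferon-inducible GTPase, Hivep2 (0.937) and Abcb1b (0.936). Bst2 ran with Hes6 (0.974), Tbc1d16 (0.974) and H2afy (0.972). Ifnar1 ran with Map3k14 (0.990), Akna (0.974) and Abi3 (0.972), and Ifnar2 with Ly86 (0.993), Mpeg1 (0.981) and Lrp1 (0.969). Ifngr2 ran with Stambpl1 (0.988), Sh2b3 (0.983) and Znrf2 (0.982). Ifngr1 ran with Gsto1 (0.943), Tsta3 (0.929) and Use1 (0.917), and Tsta3 gave 0.562 in the knockout library. Among the members the highest value was that of Bst2 with Ifngr2 at 0.925, and that of the receptor pair Ifnar1 and Ifnar2 was 0.850 and of Ifngr1 and Ifngr2 0.786. All points come from 1 library and are a description.

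Of the other pathway genes, 15 reached 20 CPM in the whole libraries and 0 of these were past the fold. None of the 19 interferon-gamma GTPases and related genes reached that level. Nor did the 4 other Ifitm genes, which summed to 1.67 and 2.72 CPM. In granulocytic cells Ifitm7 was at 1.91 and 7.41 CPM (-1.96, from 17 and 111 UMIs). Ifitm6 was at 5.16 and 2.67 CPM there (0.95, from 46 and 40 UMIs). With the level set at 5 CPM, 30 genes were compared and 3 were past the fold and lower in the knockout, namely Irf8 (-0.76), a factor of monocyte and dendritic cells, Ifi27 (-0.85), an interferon-stimulated gene, and Irgm1 (-0.53), an immunity-related GTPase. Of 13 JAK-STAT genes, 6 reached 20 CPM, with 5 higher and 1 lower in the knockout, 0 past the fold and a median of 0.04 against 0.03 over all genes. Jak1, a kinase of both receptors, was at 74.8 and 79.3 CPM (-0.08), Stat3 at 37.4 and 35.8 (0.06), Pias1, a STAT inhibitor, at 52.9 and 50.4 (0.07) and the phosphatase gene Ptpn2 at 77.8 and 71.9 (0.11). Of 9 interferon regulatory factors 2 reached the level, Irf2 at 49.9 and 48.5 CPM and Irf3 at 34.2 and 33.8. Of 45 measured interferon-stimulated genes, 6 reached it and all 6 were lower, 0 past the fold, with a median of -0.08. Among them the immunoproteasome genes Psmb10 and Psmb8 were at 129 and 159 CPM (-0.30) and at 31.3 and 36.6 (-0.23), and Trim25 and Eif2ak2, both antiviral, gave -0.08 each. Of all genes tested, 1.32% were past the fold in either direction. The 12 genes on the list of interferons gave 0 UMIs in both libraries for 10 of them, and Ifnk gave 9 and 5 UMIs and Ifng 0 and 1.

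**Figure D5:**
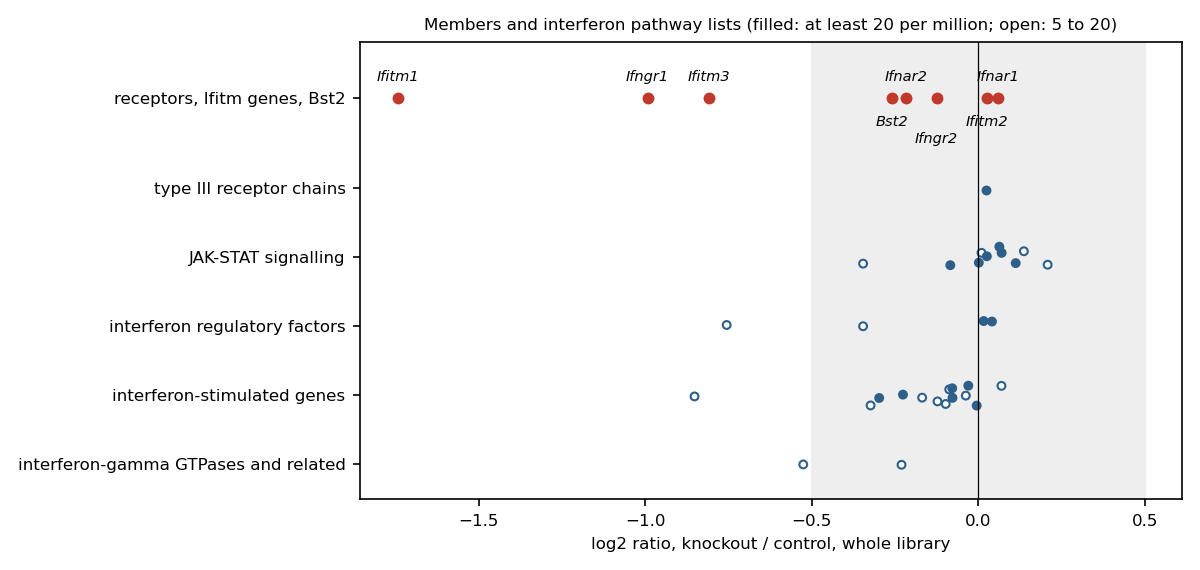
Log2 ratio of knockout over control CPM over the whole library for the 8 members (red) and the genes of each interferon pathway list (blue, filled from 20 CPM and open from 5 to 20 CPM), with a grey band within 0.5 of 0. The filled pathway points lie between -0.30 and 0.11, Ifitm1, Ifngr1 and Ifitm3 lie left of the band, and so do 3 open points, Irf8 (-0.76), Ifi27 (-0.85) and Irgm1 (-0.53).

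Within classes a few pathway genes were past the fold. Irf8, also a marker used to name the monocyte-dendritic class, was at 29.1 and 57.9 CPM in HSC/MPP (-0.99, interval -1.17 to -0.82) and at 23.0 and 108 in lymphoid-primed cells. In mast/basophil cells 8 of 9 tested interferon-stimulated genes were higher in the knockout and 3 were past the fold, Psmb9 at 35.7 and 21.96 CPM (0.70), Herc6 at 20.2 and 13.2 (0.61) and Epsti1 at 22.1 and 14.4 (0.61). Of all genes tested in that class, 2.93% were past the fold and higher and 2.24% past it and lower. In monocyte-dendritic cells, where Ifitm3 and Ifitm1 were lower, 6 of 9 tested interferon-stimulated genes were higher and 0 were past the fold. In erythroid cells 5 of 5 were lower and 0 past the fold. Most of the 45 measured interferon-stimulated genes were under 20 CPM in each class and were not counted. Some of them differed more, and in erythroid cells and HSC/MPP most of those whose intervals left 0 were lower in the knockout. In erythroid cells these included Ifi27 at 3.11 and 5.73 CPM (-0.88), Xaf1 at 1.17 and 1.90 (-0.70) and Parp9 at 6.16 and 8.04 (-0.38). Psmb8, at 1.17 and 0.870 CPM (0.42), was the only one there with an interval above 0. In HSC/MPP Ifit1 was at 1.03 and 5.67 CPM (-2.47, from 13 and 86 UMIs) and Rtp4 at 4.50 and 9.37 (-1.06). No interval lay above 0 there, and Ifit2 was at 6.24 and 4.88 CPM (0.35, interval -0.12 to 0.83).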

How the data were processed

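Droplet 3′ RNA libraries of 1 knockout and 1 control sample were analysed. The authors used Cell Ranger 7.2.0 and build mm10, per the submitters' processing notes, and deposited UMI counts per gene and barcode, which are whole numbers with no normalization. The sources used here do not say whether intronic reads were counted.

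Barcodes were kept from 1000 genes and 2000 UMIs upwards if mitochondrial UMIs did not exceed 10% (7001 knockout and 7100 control barcodes). Scrublet (scanpy 1.11.5, expected rate 6%, separately for each library) marked 248 (3.54%) and 238 (3.35%) as doublets, and these and 2 and 4 barcodes with over 0.5% hepatocyte UMIs were removed. Both libraries were clustered together (3000 variable genes, 30 principal components, 15 neighbours, Leiden resolution 1, leidenalg 0.10.2) without cell-cycle, sex-linked, mitochondrial and ribosomal genes, Brd9 and the 8 genes described here. Clusters were named from marker lists by a rule requiring at least 3 detected markers, the second rule tried, chosen after the first clusters had been seen with these genes' levels beside them. An eosinophil cluster was too small to compare, since classes needed at least 50 cells in each library.

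UMIs were summed per class and library and scaled to CPM, with exact Poisson intervals for levels, conditional exact intervals for ratios and Clopper-Pearson intervals for shares (scipy 1.17.1). Background shares are over all genes that reached 20 CPM in one of the libraries. They were taken for past-fold calls and not for counts of intervals. For thinned shares, 367 knockout and 314 control cells with fewer than 18514 UMIs were left out. A cell was called female from 3 Xist UMIs upwards if its 4 Y-linked genes gave no more than 1 UMI, and male if it had no more than 1 Xist UMI, a rule taken from earlier work on these data. Cells with at least 3 UMIs of both kinds, 142 knockout and 91 control, stayed in except in an alternative. The step that computes ratios and intervals was checked on simulated counts. GENCODE M21 held 32158 of the 32285 gene identifiers, and RefSeq promoters were found for all 8 members.

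The members, pathway lists and markers were chosen with earlier results of these data known. Named besides the members were up to 4 genes per pathway list with the largest ratio at 20 CPM or more, the 3 genes most like each member, and annotated neighbours; pathway genes past the fold within a class, and markers used to split the mast/basophil class, were named after their values were seen. Alternatives covered filters, doublets, scaling, sex, clustering, stage and minimum level. Those on the first naming rule, hepatocyte barcodes, single HSC/MPP clusters and marker splits were added after seeing the data.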

Additional observations from a re-analysis of the deposited data

Results flagged for a closer look

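In lymphoid-primed cells the Ifitm1 ratio differed in sign between the sexes, at 2.01 on the log2 scale in female cells and -1.95 in male cells. The female ratio rested on 34 knockout and 18 control cells and the male ratio on 19 and 34, and the difference between the sexes was not tested.

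Ifitm2 had opposite directions in 2 classes, at -0.75 in lymphoid-primed cells and 0.40 in mast/basophil cells, and the difference between the classes was not tested.

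Ifitm3 had opposite directions as well, at -1.13 in monocyte-dendritic cells and 0.60 in mast/basophil cells. That difference was not tested either.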

How the results depend on the processing

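No paired analysis was possible because each genotype had 1 library, and no library could be left out. Of 379 checks of a past-fold ratio under an alternative, 347 stayed past the fold in the same direction. Some of these checks could not change a call. A minimum of 5 CPM leaves each called ratio as it was, and leaving out erythroid clusters leaves the other classes as they were. The share is therefore not a measure of stability. Over the whole library 3 members were past the fold under each alternative run except a minimum of 50 CPM (2, without Ifitm3). Ifitm1 ranged from -2.04 to -1.51 there, Ifngr1 from -1.12 to -0.74 and Ifitm3 from -0.88 to -0.75. By class the 20 pairs past the fold became 13 with female cells alone, where 6 classes had enough cells, and 13 when cell-cycle genes stayed in the clustering, where 8 had. Other alternatives gave 14 to 23. By erythroid stage 2 became 1 at a minimum of 50 CPM, and in the pathway lists 0 became 3 at 5 CPM, namely Irf8 (-0.76), Ifi27 (-0.85) and Irgm1 (-0.53). With female cells alone Ifitm3 in granulocytic cells turned to 0.13, and 31.6% of its knockout UMIs lay in 1 cell. Ifitm3 in HSC/MPP was not past the fold without a cell filter (-0.44), with the stricter filter (-0.50), with doublets kept (-0.39), with cell-cycle genes kept (-0.49) and with gates on marker scores (-0.49). Its mast/basophil ratio fell to 0.31 with doublets kept and to 0.23 with gates. Bst2 in monocyte-dendritic cells lay between -0.64 and -0.48. Lymphoid-primed Ifitm2, Ifnar2 and Ifngr2 came as near to 0 as -0.34, -0.27 and -0.34. Ifitm1 in granulocytic cells ranged from -4.04 to -1.36, and in mast/basophil cells from -2.55 to -2.37. The share of cells with a UMI was lower in the knockout in 57 of 72 pairs of gene and class, and in 46 after thinning. Causes were not tested.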
